A study of Mus musculus with 6 samples.

Results

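The collagen lysyl and prolyl hydroxylases were followed through 9 probe sets, which are all those that the platform annotation assigns to the genes Plod1, Plod2, Plod3, P4ha1, P4ha2 and P4hb, out of 45101 probe sets on the array. Plod1, Plod2 and P4ha1 have 2 probe sets each, and Plod3, P4ha2 and P4hb have 1. Each probe set was kept on its own. RNA came from CAD cells, a mouse line of catecholaminergic neuronal origin that the labels call neuroblastoma, grown in medium with 10% serum. In 3 samples the cells carried a plasmid that expresses miR-124a-2, 1 of the precursors from which miR-124, a microRNA abundant in neurons, is cut, and in the other 3 the empty vector without it. The labels call the 3 samples of each group biological replicates and do not give the share of cells transfected, the time after transfection or whether each came from its own transfection. P-values therefore measure the spread between these samples only. In such bulk RNA, a lower level in every cell and a loss in some of the cells cannot be told apart.

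Lysyl hydroxylases (Plod1, Plod2 and Plod3) and prolyl hydroxylases (P4ha1 and P4ha2, with P4hb) are enzymes of the endoplasmic reticulum that use iron, oxygen, oxoglutarate and ascorbate to add hydroxyl groups to procollagen. Hydroxyproline holds the collagen triple helix together at body temperature, and hydroxylysine carries the sugars of collagen and forms the crosslinks between its molecules. Neuronal cells deposit little fibrillar collagen, but basement membrane collagen and other proteins with collagen-like repeats pass through the same enzymes. Plod3 is among reported targets of miR-124, and whether that report drew on these samples was not checked.

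With miR-124a-2, Plod3 was the lysyl hydroxylase gene that passed the test. It fell to 51.1% of its empty vector signal, both probe sets of Plod2 had lower means that did not pass the test, and Plod1 had the same mean within 0.03 on the log2 scale. No prolyl hydroxylase subunit passed: both probe sets of P4ha1 had lower means, with log2 differences of -0.63 and -0.89, and P4ha2 and P4hb had -0.18 and -0.14. The test was limma's moderated test over 45037 probe sets with Benjamini-Hochberg adjustment, in which an adjusted p under 0.05 counts as passing. By that rule 1 of the 9 probe sets passed, beside 0.269% of all probe sets (121 of 45037, with 94 or 0.209% lower and 27 or 0.06% higher). At an unadjusted p under 0.05 there were 5 of the 9 and 3688 of all, or 8.19%. Calls changed throughout when single arrays were left out. Leaving out an array also leaves the test fewer arrays, so a lost call does not show that it rested on that array. Limma called no probe set without empty vector replicate 1, 2 or 3 or miR-124a-2 replicate 1 (4247, 2311, 2409 and 3456 at an unadjusted p under 0.05). It called 12 without miR-124a-2 replicate 2, and 356 without miR-124a-2 replicate 3. The median log2 fold change of the 9 was -0.63, against 0.002 for all probe sets, and 7 of the 9 were below 0, beside 22225 of all 45037. With only the brightest probe set of each gene, the median was -0.40 for the members, against 0.02 for all 18193 genes. In 6 of the 9, every miR-124a-2 array lay below every empty vector array, where 13.2% of all probe sets had groups that did not overlap in either direction and 6.97% had them lower with miR-124a-2. The members were chosen with earlier results of these data known. The contrasts of the 9 with all probe sets are therefore a description and not independent evidence.

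**Figure D1:**
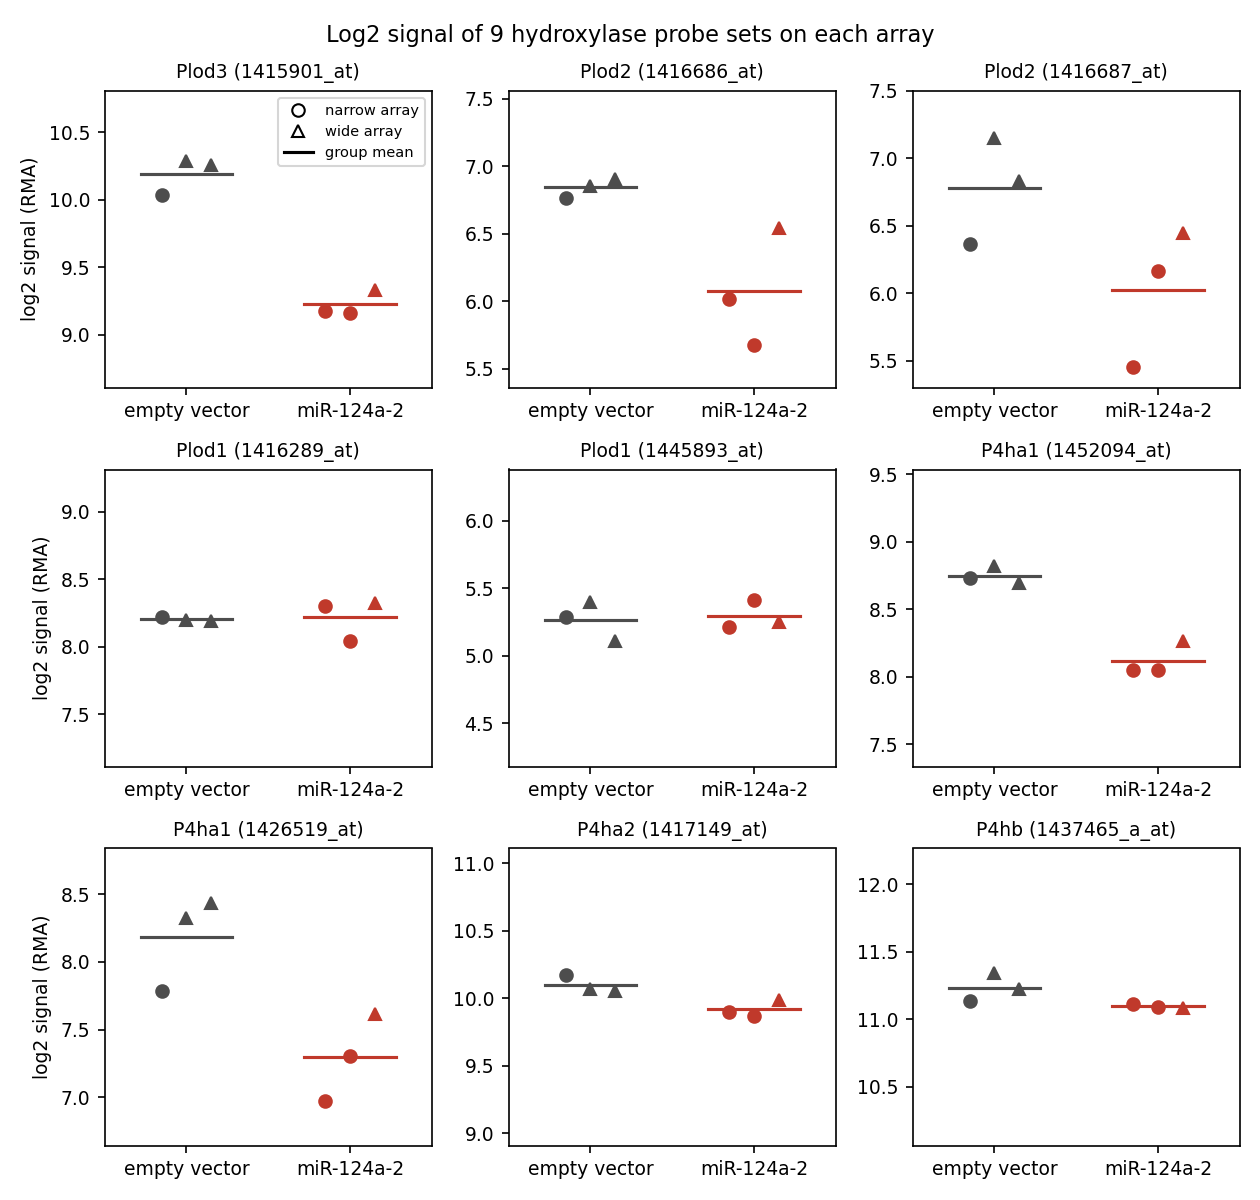
Log2 signal of each of the 9 probe sets (vertical axes, all of the same span) on the 3 empty vector arrays (grey) and the 3 miR-124a-2 arrays (red), with lines at group means and circles or triangles for the arrays with a narrow or wide spread of signals. Plod3, P4ha1 and the first Plod2 probe set show separate groups, P4ha2 and P4hb are separate by short gaps, the second Plod2 probe set overlaps, and Plod1 is level.

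Plod3 encodes the lysyl hydroxylase that also adds glucose to the sugar already carried by hydroxylysine. Its probe set (1415901_at) read 10.04, 10.28 and 10.26 on the log2 scale in empty vector replicates 1, 2 and 3, and 9.18, 9.16 and 9.33 in the miR-124a-2 replicates. The lowest empty vector array stood well above the highest miR-124a-2 array, and replicates within either group were close together. The group means were 10.19 ± 0.14 and 9.23 ± 0.09 (SD, n = 3 per group). Plod3 fell by 0.97 on the log2 scale (SE 0.11, 95% interval -1.22 to -0.72, adjusted p = 0.0219), which is 1.96-fold, and ranked 37 of 45037 probe sets by p. The direction was the same in all 19 alternative settings, with values from -1.05 to -0.90, but the call was not kept in all of them. It was lost without empty vector replicate 1, 2 or 3 (adjusted p = 0.0565, 0.192 and 0.153) and without miR-124a-2 replicate 1 or 2 (0.111 and 0.0917), kept without miR-124a-2 replicate 3 (0.0154), and lost with median centring (0.0541), within a range of 0.00433 to 0.242 over the alternatives.

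Plod2 encodes the lysyl hydroxylase that acts on the ends of collagen chains and so sets the kind of crosslink formed. Its probe set 1416686_at read 6.77, 6.86 and 6.90 in the empty vector arrays and 6.01, 5.68 and 6.54 with miR-124a-2. The empty vector arrays were tightly grouped and the miR-124a-2 arrays widely spread, with replicate 3 much closer to the empty vector than the other two. The difference of -0.76 (SE 0.20, 95% interval -1.22 to -0.31) did not pass in limma's fit (adjusted p = 0.233). It passed in 1 of 19 alternatives, the fit without miR-124a-2 replicate 3 (-0.996, adjusted p = 0.0225, range 0.0225 to 0.728). Probe set 1416687_at, which the annotation ties to the same transcript record, read 6.37, 7.15 and 6.83 against 5.45, 6.17 and 6.45. Here the groups overlapped, since empty vector replicate 1 lay below miR-124a-2 replicate 3. Its difference was also -0.76 (SE 0.27, adjusted p = 0.470), and it moved to -0.47 without miR-124a-2 replicate 1 (-0.97 to -0.47 with 1 array left out). The changes of the 2 probe sets were 0.01 apart (two-sided exact permutation p = 1.0, adjusted over 3 such pairs 1.0), in a test that cannot go below p = 0.1 with 3 arrays against 3 and so cannot show whether they differ.

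Plod1, the lysyl hydroxylase of the helical part of collagen, served as a paralog on the same arrays. Probe set 1416289_at read 8.22, 8.20 and 8.19 with the empty vector and 8.30, 8.05 and 8.32 with miR-124a-2, so the miR-124a-2 arrays lay on both sides of a very narrow control group. The difference was 0.02, and its 95% interval of -0.22 to 0.26 leaves out changes of the size seen in Plod3. The dimmer probe set 1445893_at read 5.29, 5.40 and 5.11 against 5.22, 5.42 and 5.25, with a difference of 0.03 (95% interval -0.23 to 0.29). Neither passed (adjusted p = 0.991 and 0.987), and since both values are close to 0 their sign turned in some alternatives.

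P4ha1 encodes the main catalytic alpha subunit of collagen prolyl hydroxylase. Its brighter probe set 1452094_at read 8.73, 8.82 and 8.69 with the empty vector and 8.05, 8.05 and 8.26 with miR-124a-2. The groups were separate, and each had a small spread (SD 0.07 and 0.12). The difference of -0.63 (SE 0.10, 95% interval -0.86 to -0.40, 1.55-fold) missed the threshold over all probe sets (adjusted p = 0.0656). It passed in 9 of 19 alternatives (range 0.0330 to 0.413), among them the fit with 1 probe set per gene, in which fewer features were tested (adjusted p = 0.0330). The second probe set 1426519_at read 7.79, 8.32 and 8.44 against 6.97, 7.30 and 7.61. It again had no overlap, though empty vector replicate 1 came within a short distance of miR-124a-2 replicate 3. Its difference was -0.89 (SE 0.21, adjusted p = 0.180), which is 0.26 further below 0 than the brighter probe set (a difference of -0.26, two-sided exact permutation p = 0.4, adjusted over 3 pairs 1.0, in the same test with its lower limit of 0.1).

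P4ha2 is the other catalytic alpha subunit, which assembles with P4hb in place of P4ha1. It read 10.17, 10.06 and 10.05 with the empty vector and 9.90, 9.87 and 9.99 with miR-124a-2 (1417149_at). All 3 miR-124a-2 arrays were lower, by a narrow margin. The difference was -0.18 (SE 0.09, 95% interval -0.39 to 0.03, adjusted p = 0.714). P4hb, the beta subunit, is protein disulfide isomerase, which keeps the alpha subunits soluble and also forms disulfide bonds in many other proteins. It read 11.14, 11.34 and 11.22 against 11.11, 11.09 and 11.08 (1437465_a_at), where the groups were separate only by the short gap below empty vector replicate 1. The P4hb difference was -0.14 (SE 0.09, 95% interval -0.36 to 0.08, adjusted p = 0.823), and -0.086 without empty vector replicate 2. The intervals of both genes leave out a fall as large as that of P4ha1 in its brighter probe set.

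**Figure D2:**
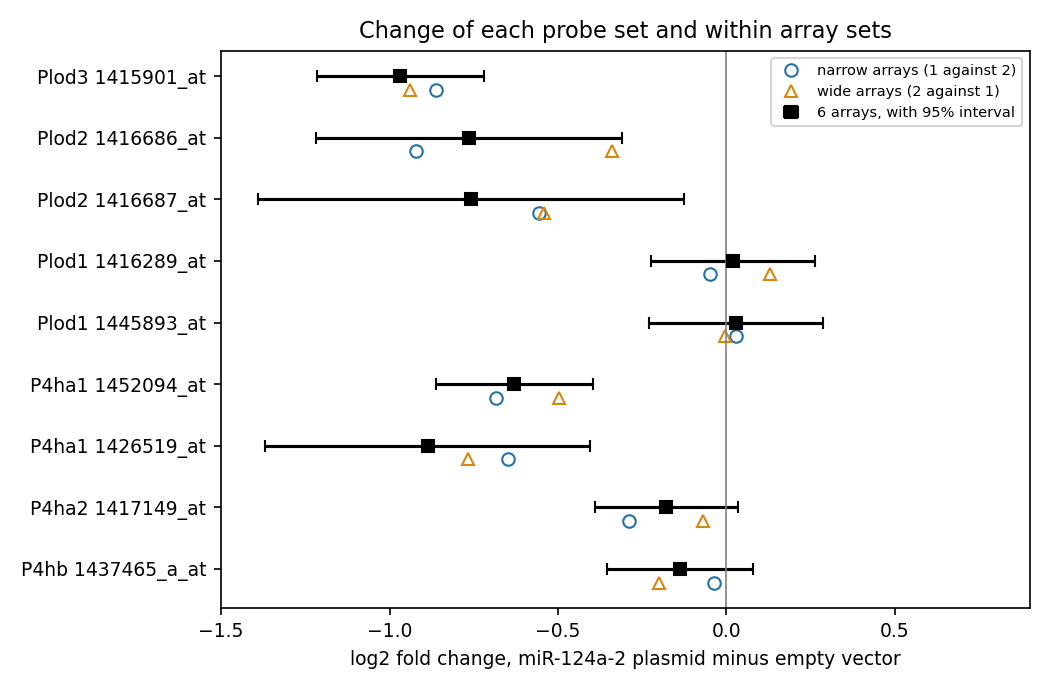
Log2 fold change (horizontal axis, miR-124a-2 plasmid minus empty vector) of each of the 9 probe sets, with black squares and bars for all 6 arrays and their 95% intervals from limma, and open symbols for the values within narrow and wide arrays. All probe sets except those of Plod1 stay below 0 in both array sets. The first Plod2 probe set has -0.92 in narrow arrays against -0.34 in wide ones, and the intervals of Plod1, P4ha2 and P4hb span 0.

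The arrays were not alike in quality, and this touches the members. Empty vector replicate 1 and miR-124a-2 replicates 1 and 2 had interquartile ranges of 3.06 to 3.10 and are called narrow below, while the remaining arrays had 3.26 to 3.35 and are called wide. Averages of the 18S ribosomal RNA controls were 5.23 to 5.83 in narrow arrays and 4.71 to 4.87 in wide ones. For the transferrin receptor control, the 3' less the 5' log2 signal was 1.09 to 1.55 in narrow arrays and 0.95 to 1.02 in wide ones. Whether this 3' excess bears on the members was not tested. Allowing for the group, the signals of P4ha1 (1426519_at) and of the 2 Plod2 probe sets were 0.53, 0.40 and 0.63 higher in wide than in narrow arrays, and that of Plod3 0.20 higher. Within narrow and wide arrays Plod3 differed by -0.86 and -0.94, P4ha1 by -0.68 and -0.50 (1452094_at) and by -0.65 and -0.77 (1426519_at). The second Plod2 probe set differed by -0.56 and -0.54 there, less than the -0.76 over all arrays. Only 1 empty vector array is narrow and only 1 miR-124a-2 array is wide, so each of these values leans on 1 array. With the array set as a block, Plod3 (adjusted p = 0.00592) and both P4ha1 probe sets (0.0369 and 0.0371) passed as lower, 3 of 9 members beside 0.693% of all probe sets lower by that rule, and Plod2 did not (0.110 and 0.270).

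Whether members responded differently from each other was asked on differences of log2 signal within each array, which cancel any array-wide shift. They do not cancel the offset of wide from narrow arrays, which, allowing for the group, was 0.40 for Plod2 (1416686_at) and 0.06 for Plod1 (1416289_at). Between the brightest probe sets of 2 members, 15 pairs were compared by a two-sided exact permutation test over the 20 divisions of the arrays. With 3 arrays against 3, that exact permutation test cannot go below p = 0.1. The change of Plod3 was 0.99 lower than that of Plod1, with SDs of the within-array difference of 0.15 and 0.12 in the empty vector and miR-124a-2 groups (exact permutation p = 0.1, adjusted p = 0.136). The change of Plod2 was 0.78 lower than that of Plod1, with SDs of 0.09 and 0.32 (the same p). For the alternative catalytic subunits, P4ha1 minus P4ha2 shifted by -0.45 (SD 0.10 and 0.06), and P4ha1 minus P4hb shifted by -0.49 (SD 0.07 and 0.14), again at the smallest p. The changes of Plod2 and Plod3 were 0.20 apart (exact permutation p = 0.5, adjusted p = 0.536), and that of P4ha2 less that of P4hb was -0.04 (exact permutation p = 0.8, adjusted p = 0.800). In all, 11 of the 15 pairs reached the smallest p, and none could pass 0.05. These pairs reuse the same genes, and the share of other gene pairs that reach this p was not computed. Among the 11 was Plod1 with P4ha2, whose changes were only 0.20 apart, so reaching the smallest p does not mark a large difference.

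**Figure D3:**
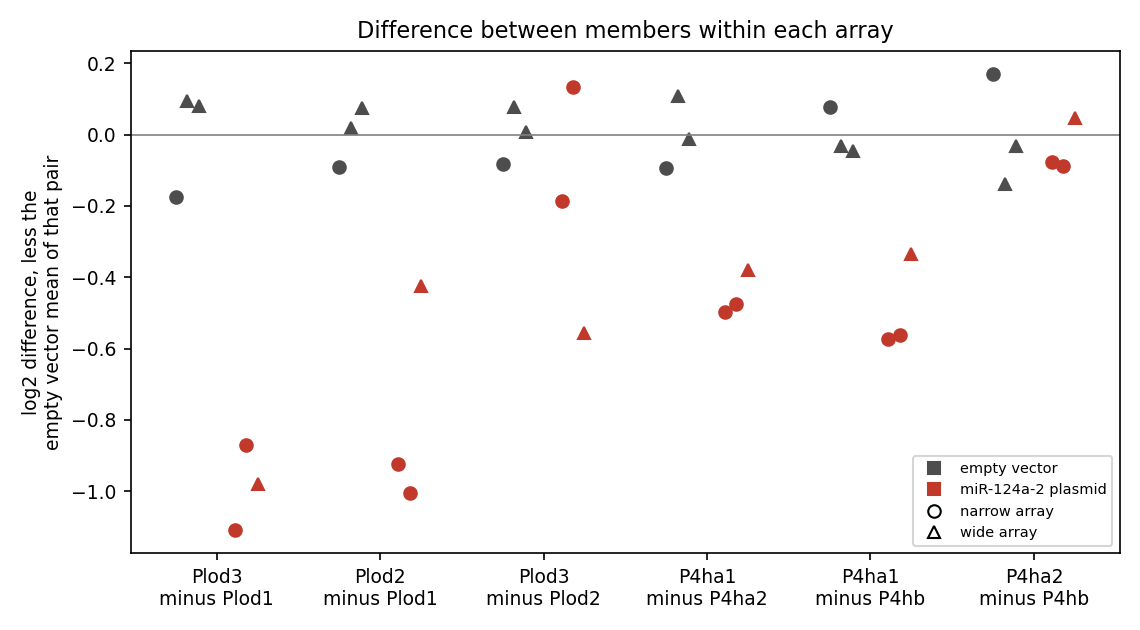
Difference in log2 signal between 2 members within each array, less the empty vector mean of that pair (vertical axis), for 6 pairs of brightest probe sets, with empty vector arrays in grey and miR-124a-2 arrays in red, and circles or triangles for narrow or wide arrays. The pairs Plod3 minus Plod1, Plod2 minus Plod1, P4ha1 minus P4ha2 and P4ha1 minus P4hb separate the groups, while Plod3 minus Plod2 and P4ha2 minus P4hb overlap.

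The promoters of Plod3, P4ha1 and Plod1 are shown because Plod3 and P4ha1 had lower signals on all miR-124a-2 arrays while Plod1 did not. P4ha2 and P4hb were also lower on all miR-124a-2 arrays, by short gaps, and their sequences are not printed. So was Plod2 in probe set 1416686_at. A further reason is that several of the member genes are known to be induced by hypoxia. RefSeq windows of 300 bases (GRCm38.p6, from 250 bases before to 50 bases after the transcript start, written on the gene's strand) were matched by symbol for 5 of the 6 members, all but Plod2. Capitals mark the core of the hypoxia response element, ACGTG or GCGTG on either strand. A match overlapping another on the opposite strand counts separately.
Plod3 promoter, chr5:136986769-136987068, plus strand: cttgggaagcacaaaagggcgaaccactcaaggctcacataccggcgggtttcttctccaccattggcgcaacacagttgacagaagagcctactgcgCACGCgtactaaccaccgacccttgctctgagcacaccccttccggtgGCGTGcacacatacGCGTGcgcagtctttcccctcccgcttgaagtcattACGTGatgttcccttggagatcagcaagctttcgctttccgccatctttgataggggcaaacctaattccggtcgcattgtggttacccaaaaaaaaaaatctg
P4ha1 promoter, chr10:59323046-59323345, plus strand: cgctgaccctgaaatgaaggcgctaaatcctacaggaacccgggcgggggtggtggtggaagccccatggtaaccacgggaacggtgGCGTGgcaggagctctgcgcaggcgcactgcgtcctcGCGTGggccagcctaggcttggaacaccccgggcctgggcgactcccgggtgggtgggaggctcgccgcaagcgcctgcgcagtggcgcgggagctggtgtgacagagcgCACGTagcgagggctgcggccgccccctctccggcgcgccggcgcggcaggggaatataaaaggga
Plod1 promoter, chr4:147936727-147937026, minus strand: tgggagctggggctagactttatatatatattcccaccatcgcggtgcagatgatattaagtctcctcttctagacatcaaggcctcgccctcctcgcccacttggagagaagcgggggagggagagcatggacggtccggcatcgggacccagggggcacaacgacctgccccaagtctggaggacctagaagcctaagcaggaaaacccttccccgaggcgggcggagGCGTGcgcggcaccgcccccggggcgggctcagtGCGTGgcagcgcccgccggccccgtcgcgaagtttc

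The core stood 4 times in the Plod3 window, 3 times in that of P4ha1 and 2 times in that of Plod1. P4ha2 and P4hb had 4 and 3 matches, so all 5 windows held it, that of Plod3, which passed the test, and those of the 4 that did not. Among all 32851 RefSeq windows of that length, 43.8% held at least 1 match. Counting bases from the transcript start, with 1 as the first transcribed base, the Plod3 window has its ACGTG at -54 to -50 and the P4ha1 window has it on the opposite strand at -16 to -12. The GC box GGGCGG, in either orientation, was found in the windows of Plod1, P4ha1, P4ha2 and P4hb but not of Plod3, and in 35.7% of all windows. Absence from a window says only that those letters are not in these 300 bases. Sequence composition differed as well, with 53.3% G and C in the Plod3 window and 64.3% to 70.3% in the other 4, against a median of 52.7% over all windows.

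The genes around these enzymes were taken from lists, each gene represented by its brightest probe set with adjustment still over all probe sets. By that rule 0.423% of 18193 genes passed (61 lower, or 0.335%, and 16 higher, or 0.0879%), with a median log2 fold change of 0.02, and 10.6% (1927) had an unadjusted p under 0.05. Of 13 measured genes that modify or fold procollagen in the endoplasmic reticulum outside the members, 1 fell, none rose and 12 did not pass (median -0.07). The gene that fell was Crtap, the cartilage-associated protein that forms the prolyl 3-hydroxylation complex with P3h1 and cyclophilin B. Crtap (1448592_at) read 9.77, 9.95 and 9.98 with the empty vector and 8.87, 8.63 and 9.01 with miR-124a-2, without overlap. It fell by 1.06 (SE 0.12, adjusted p = 0.0237), 2.09-fold, and the difference was -1.02 among narrow arrays and -0.95 among wide ones. That call was lost in 8 of 19 alternatives, among them leaving out any single array other than miR-124a-2 replicate 3 (range of adjusted p 0.00481 to 0.244), while the value stayed between -1.15 and -0.96.

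The partners of Crtap were picked out after the values were seen. P3h1, the hydroxylase itself, read 6.21, 6.36 and 6.43 against 5.54, 5.79 and 6.07, a difference of -0.53 without overlap that did not pass (SE 0.14, adjusted p = 0.259) and was -0.31 with the mean of its probe sets. Ppib, which encodes cyclophilin B, differed by 0.08 (adjusted p = 0.939). Colgalt1, the galactosyltransferase that acts on hydroxylysine before Plod3, differed by 0.04 (adjusted p = 0.968), and P4ha3, the third catalytic alpha subunit gene, by -0.23 (adjusted p = 0.635).

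Collagen chain genes and genes of the later steps of collagen assembly did not pass in limma's fit. None of 33 collagen chain genes passed (1 at an unadjusted p under 0.05, median 0.03, from -0.18 to 0.36), the largest differences being 0.36 for Col8a1 and 0.29 for Col23a1, which were 0.072 and 0.10 with the mean of each gene's probe sets. Col23a1 had 0.44 without miR-124a-2 replicate 3 and 0.19 with the array set as a block. Of these 33 genes, 17 were above the median signal of all probe sets (4.78) on every array, beside 11053 of all 18193 genes. The dimmer collagen chain genes had little signal from which a fall could show. None of 12 genes of procollagen secretion passed (3 unadjusted, median 0.07), with -0.38 for Sec24d, a coat protein of vesicles leaving the endoplasmic reticulum, and -0.37 for the cargo receptor Lman1. Sec24d moved to -0.22 without empty vector replicate 3, to -0.18 and -0.57 without miR-124a-2 replicates 1 and 3, and to -0.20 with the array set as a block, and Lman1 to -0.20 with the mean of its probe sets. None of 10 genes of extracellular processing and crosslinking passed (0 unadjusted, median -0.03), with -0.13 for Loxl4 and -0.12 for Pcolce2, small values that ranged from -0.24 to -0.042 and from -0.27 to 0.090 with 1 array left out. Only 3 of these 10 genes were above that median signal on every array, so the same limit holds for them.

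In the wider families of the members no gene passed in its brightest probe set, which does not show that none changed. Among 21 protein disulfide isomerase and oxidative folding genes, relatives of P4hb, none passed in limma's fit (2 at an unadjusted p under 0.05, median -0.04), with -0.35 for Pdia5 and 0.31 for Tmx4. None of 19 chaperone and unfolded protein response genes passed (4 unadjusted, median -0.11), with -0.83 for Trib3 (-0.54 without miR-124a-2 replicate 1) and -0.43 for the co-chaperone gene Dnajc3. Of 25 hypoxia response genes none passed (5 unadjusted, median 0.06, with 8 below 0), and the largest differences were upward, 0.46 for Bnip3 and 0.42 for Ddit4. Of 19 genes of oxygen sensing and other oxoglutarate-dependent oxygenases none passed in its brightest probe set (3 unadjusted, median -0.04). Of the 6 probe sets of Asph, the aspartyl hydroxylase of epidermal growth factor-like domains, a dim one did pass (1436455_at). It read 4.07, 4.16 and 3.86 with the empty vector and 4.80, 4.78 and 4.74 with miR-124a-2, without overlap, and rose by 0.74 (SE 0.11, adjusted p = 0.0453). The other Asph probe sets ranged from -0.54 to 0.11, with 0.04 for the brightest. The call was kept in 8 of 16 alternatives (range of adjusted p 0.0216 to 0.311) and was lost without empty vector replicate 1, 2 or 3 or miR-124a-2 replicate 1 or 2. Within that list Ogfod3 had -0.83 (SE 0.14, adjusted p = 0.0753), which passed in 9 of 19 alternatives (range 0.0295 to 0.412), and Phyh, the oxygenase of phytanic acid breakdown, had 0.40 (adjusted p = 0.284).

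**Figure D4:**
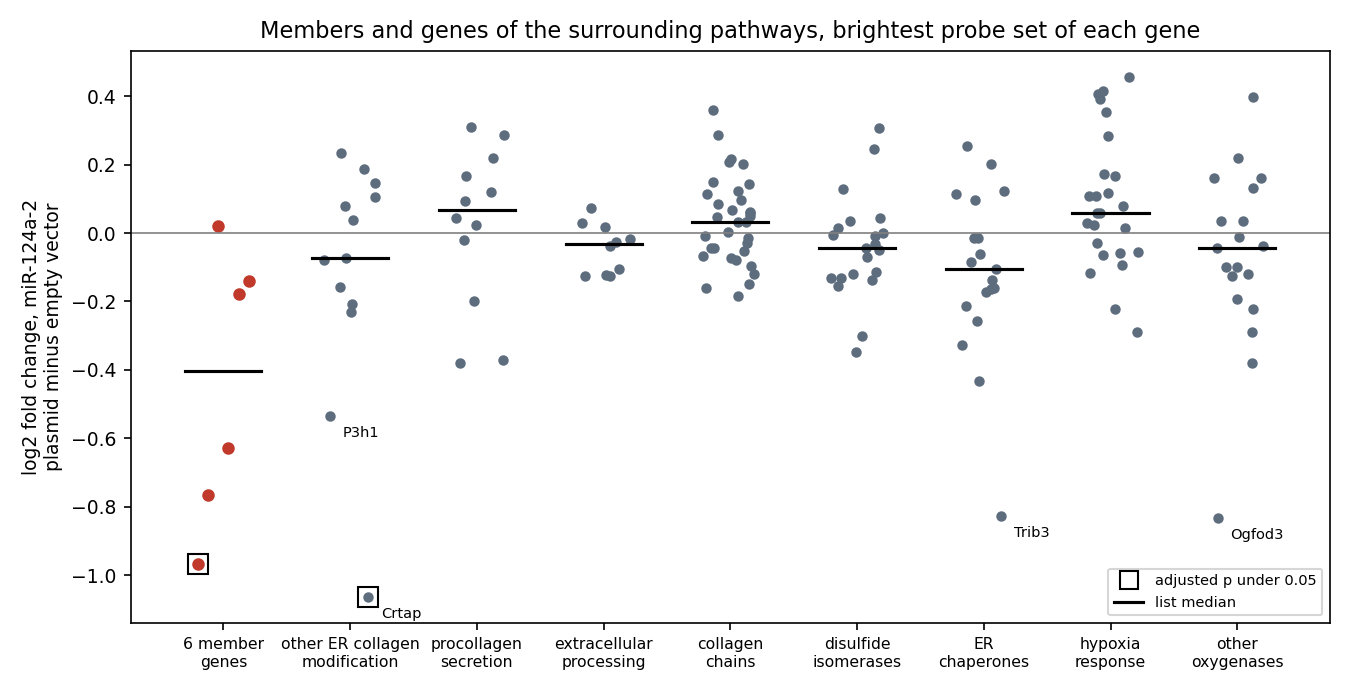
Log2 fold change (vertical axis, miR-124a-2 plasmid minus empty vector) of the brightest probe set of each of the 6 member genes (red) and of the genes of 8 lists (grey), with list medians as lines and open squares around genes with an adjusted p under 0.05. Plod3 and Crtap are the genes in squares, and the medians of the 8 lists lie between -0.11 and 0.07.

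The genes whose pattern over the 6 arrays was most like that of a member's brightest probe set were found by Pearson correlation. The search ran among 20190 probe sets of other genes with above-median signal. These correlations share the arrays and the group difference and are given as a description. Closest to Plod3 were Orc2 (r = 0.997), a subunit of the origin recognition complex that fell by 1.08 (SE 0.12, adjusted p = 0.0195), and Cd151 (r = 0.997), a tetraspanin partner of laminin-binding integrins that fell by 0.91 (SE 0.11, adjusted p = 0.0264). As for Plod3, neither gene passed without empty vector replicate 1, 2 or 3 or miR-124a-2 replicate 1 or 2 (adjusted p over the alternatives 0.00526 to 0.242 and 0.00514 to 0.244). Gldc, a mitochondrial glycine cleavage enzyme (r = 0.998, difference -0.61, adjusted p = 0.0645), and Capns1, the small calpain subunit (r = 0.997, -0.44), were closest to P4ha1. Plod2 was most like Skp2, an F-box protein of cell cycle control (r = 0.997, difference -1.07, adjusted p = 0.154), and Suco (r = 0.996, -0.47). Zfp24 and Trim27 followed P4ha2 (r = 0.999 and 0.998), Srprb and Pinx1 followed P4hb (r = 0.994 and 0.991), and Rbm34 and Sel1l3 followed Plod1 (r = 0.995 and 0.989), none of these passing the test. Between members, Plod3 and P4ha1 (1452094_at) had r = 0.980, and Plod3 and Plod1 (1416289_at) had r = -0.05. The 2 probe sets of the same gene had r = -0.50 for Plod1, 0.74 for Plod2 and 0.89 for P4ha1. The likenesses therefore describe the brightest probe set and not the gene as a whole.

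The cells and the treatment were checked on the same arrays. The miR-124 target Ptbp1 fell by 1.24 (SE 0.12, adjusted p = 0.0179) and Ctdsp1, a phosphatase gene also reported as a target, fell by 1.38 (SE 0.19, adjusted p = 0.0381). Both lost the call without empty vector replicate 1, 2 or 3 or miR-124a-2 replicate 1 or 2, and Ptbp1 had -0.48 with the mean of its probe sets. As for Plod3, whether the reports of Ptbp1 and Ctdsp1 as targets drew on these samples was not checked. All 16 measured catecholaminergic and neuronal markers were above 4.78, the median signal of all probe sets, on every array. By their brightest probe sets, 11053 of all 18193 genes were above it on every array. The mean of the 16 markers was 9.46 to 9.53 with the empty vector and 9.74 to 9.80 with miR-124a-2. All 16 differences were above 0 and none passed in limma's fit (7 at an unadjusted p under 0.05, beside 10.6% of all genes). The part of this shift in the members' values was not tested. Fibroblasts are rich in these hydroxylases. Of 12 fibroblast and mesenchymal markers, 2 (Dcn and Fbln1) were above that median on every array, and the list mean was 4.76 to 4.88 with the empty vector and 4.74 to 4.92 with miR-124a-2. Dcn had an empty vector mean of 5.04 and Fbln1 of 10.54. The fibrillar collagen genes Col1a1, Col1a2 and Col3a1 had empty vector means of 4.41, 4.64 and 3.57, below or near the median of 4.78, where a bacterial control transcript not added to the samples averaged 3.37 to 3.50. Glial and immune or endothelial markers had 2 of 9 and 2 of 9 above the median on every array, and no gene of the fibroblast, glial and immune or endothelial lists passed, adjusted or at an unadjusted p under 0.05 (0 in each).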

How the data were processed

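Total RNA was extracted with Trizol and 6 ug was turned into biotin-labelled cRNA for 6 arrays, per the labels' protocols. What the authors deposited is 1 log2 expression value per probe set and array. The submitters' processing notes name RMA without a version, and a probe definition or filter is not given in the sources used here. Values were used without further normalization. Arrays give no read depth, and their number limits precision.

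Gene names came from the 2016 annotation of the platform (34945 of the probe sets tested have 1 gene), and 64 control probe sets were left out. Groups were compared with limma 3.58.1 in R 4.3.3 (lmFit, eBayes; two-sided). No block entered the model, and p-values were adjusted by Benjamini-Hochberg over 45037 probe sets, with a threshold of 0.05. Errors of fold changes are its standard errors. The model was tested on simulated data, in which it found a share of 0.106 of log2 changes of 0.5 and 0.679 of changes of 1. Alternatives were blocks, each array left out, other scalings and variance models, a filter on dim probe sets, 1 value per gene and a threshold of 0.01. Narrow and wide arrays, and arrays with high and low poly-A control signals (a division by signal that the labels do not name), were divided at the largest gap.

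The members and lists were chosen with earlier results of these data known. Genes outside the members were named by rule: from each list up to 3 that passed, or else the 2 with the largest difference, and the 2 genes closest to each member by correlation. Other genes named were chosen after their values were seen. Replicate numbers were not treated as pairs: deviations from the group means correlated at 0.58, 0.03 and 0.56 between arrays of the same number.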

Additional observations from a re-analysis of the deposited data

How the results depend on the processing

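Across 40 single probe sets and up to 19 alternatives each, 727 of 739 values kept the direction of the reported value, and 637 also kept their side of the threshold. The number of probe sets that passed was 121, and of members 1. These were 673 and 4 with the replicate number as a block, 510 and 3 with the array set as a block, 340 and 3 with a block for the poly-A controls, which ties together the replicate 1 arrays of both groups (means of 5.96 and 5.97, against 5.57 to 5.71 on the other arrays), 268 and 2 with quantile normalization, 244 and 2 with cyclic loess, 218 and 2 with an intensity trend, and 229 and 2 with robust estimation added. They were 39 and 0 with median centring, 0 and 0 at an adjusted p under 0.01, and 0 and 0 in limma with replicates 2 and 3 only, a setting chosen after seeing the data (3730 and 5 at an unadjusted p under 0.05). With the brightest probe set per gene, where fewer features are tested, 165 of 18193 genes and 2 of 6 members passed. The mean of probe sets per gene gave 110 and 1, and the filter on dim probe sets gave 130 and 1. Leaving out 1 array gave 0 to 356 probe sets and 0 to 3 members. The block by replicate number does not rest on a pairing in the labels. Under it both P4ha1 probe sets, Plod3 and 1 Plod2 probe set passed. By deviations from the group means, replicates 1 and 3 correlated best with the array of their own number (0.58 and 0.56). Empty vector replicate 2 correlated better with miR-124a-2 replicate 3 (0.34) than with replicate 2 (0.03). The sign of values near 0 turned when single arrays were left out: values ranged from -0.031 to 0.11 and from -0.050 to 0.097 for the Plod1 probe sets 1416289_at and 1445893_at, from -0.27 to 0.090 for Pcolce2, from -0.045 to 0.21 for Rbm34 and from -0.030 to 0.095 for Sel1l3. With replicates 2 and 3 only, Plod1 (1416289_at), Rbm34 and Sel1l3 had -0.010, -0.019 and -0.0090. Beyond these constructions the cause was not tested.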
